A study of Mus musculus with 6 samples.

Results

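The genes described here are the SNAREs and synaptotagmins that serve the exocytosis of secretory lysosomes, as transcribed in cultured mouse osteoclasts. They were taken from the count table by name: the numbered *Vamp*, *Stx* and *Syt* genes, with *Snap23*, *Snap25*, *Snap29*, *Snap47*, *Vti1a*, *Vti1b*, *Napa*, *Napb*, *Napg*, *Nsf*, *Ykt6* and *Sec22b*. The rule found 48 of 22601 genes listed, and 35 of them were among the 13483 genes with enough counts to be tested. SNAREs are small membrane proteins that zip together across a vesicle and its target to drive fusion, with an R-SNARE usually on the vesicle and Qa, Qb and Qc helices on the target. Synaptotagmins are membrane proteins of secretory traffic, several of which bind calcium and make such fusion depend on it, while NSF and its SNAP adaptors pull the spent complexes apart. In osteoclasts, secretory lysosomes fuse with the bone-facing plasma membrane, which forms the ruffled border and releases acid and proteases onto bone.

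RNAseq covered 6 libraries, 3 from WT mice and 3 from mice lacking *Slc37a2*, a member of a sugar transporter family that is found on secretory lysosomes (*Slc37a2* KO). Both genotypes were on the C57BL/6N background, and the knockout carries the gene-trapped tm2a allele of the KOMP consortium, from 1 embryonic stem cell clone. By the labels, bone marrow macrophages of both genotypes were turned into osteoclasts by 5 days with RANKL at 10 ng/ml and M-CSF at 2 ng/ml. The paper's results also describe RNAseq of osteoclasts, whereas its RNAseq methods describe RNA of whole femurs and tibias from male and female mice. The column headings give an age of 11 weeks, an animal number, by which each library is named here, and an F that the labels leave unexplained. The labels call the samples biological replicates without saying whether they were separate cultures or animals. The animal numbers all differ, and the paper counts mice as the biological replicates of its experimental cohorts. P-values measure the spread between these libraries. Library totals were 39250356, 27552183 and 31396766 counts in WT K090, L080 and L082, and 29279260, 42522292 and 29663713 counts in *Slc37a2* KO K089, L078 and L081. Levels are given in CPM, the counts scaled to a common library size, after TMM scaling, which corrects for library composition, and as CPM per kb of merged exons where genes are set beside each other.

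The markers of the labelled cell type were abundant. The 10 osteoclast genes, led by *Mmp9*, summed to 38320, 50530 and 57772 CPM in WT K090, L080 and L082 and to 75594, 41827 and 67269 CPM in *Slc37a2* KO K089, L078 and L081. The 6 macrophage genes, led by *Csf1r*, summed to between 3632 and 4454 CPM, though single genes of the list varied more. *Adgre1*, which encodes the macrophage surface protein F4/80, measured 311, 272 and 79.98 CPM in WT K090, L080 and L082 and 64.4, 262 and 95.8 CPM in *Slc37a2* KO K089, L078 and L081. The scavenging receptor genes *Mrc1* and *Mertk* had the same 3 high libraries, K090, L080 and L078, with *Mrc1* at 81.3 CPM or more in these and at most 22.5 CPM in the others, and *Mertk* at 23.1 CPM or more and at most 5.45 CPM. *Cd14* was also highest in these, at 37.9 CPM or more against at most 30.2 CPM, while *Cd68* was lowest in them, at most 1577 CPM against 1863 CPM or more. *Csf1r* did not follow this split, at 1756 CPM in K090 and 1722 CPM in L078 but 1884 CPM in L080, above 1850 CPM in L082. Of the lists for cells that whole bone would add, the 3 neutrophil genes listed summed to at most 1.09 CPM, the 3 B lymphoid genes to at most 0.269 CPM and the 4 mast cell genes to at most 0.989 CPM, and the red cell gene *Hba-a1* was counted in L081 alone, at 0.0707 CPM. The 8 osteoblast and osteocyte genes summed to between 309 and 886 CPM, nearly all of it *Col1a1*, and the 6 neuronal genes, led by *Syn1*, to between 14.0 and 25.4 CPM. The libraries were not alike within a genotype. The 10 interferon response genes, led by *Oas2*, summed to 153, 79.6 and 21.9 CPM in WT K090, L080 and L082 and to 16.7, 92.0 and 32.8 CPM in *Slc37a2* KO K089, L078 and L081. The 3 highest interferon sums and the 3 lowest osteoclast sums were those of WT K090, WT L080 and *Slc37a2* KO L078. Of the osteoclast genes, *Calcr* and *Nfatc1* did not follow this order, while each other gene of the list was lowest in these 3 libraries. *Calcr* measured 149 CPM in L080 and 88.7 CPM in L082, and *Nfatc1* 503 CPM in K090 and 493 CPM in L082.

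The targeted gene fitted the labels in every library. *Slc37a2*, at chr9:37227585-37255738 of GRCm38, was counted 75789, 60889 and 76013 times in WT K090, L080 and L082 and 1233, 1446 and 1043 times in *Slc37a2* KO K089, L078 and L081. Its level was 2148 ± 291 CPM in WT and 38.1 ± 6.66 CPM in *Slc37a2* KO (SD, n = 3 each), a log2 fold change of -5.82 (SE 0.20, adjusted p = 7.07e-04 by edgeR's quasi-likelihood test and the Benjamini-Hochberg method). It was the gene called in that test, 1 of 13483 (0.00742%).

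None of the 35 tested SNARE and synaptotagmin genes was called. The count at an adjusted p under 0.05 was 0 in edgeR's quasi-likelihood test, 0 in edgeR's likelihood ratio test and 0 in DESeq2's Wald test, and the smallest adjusted p in the quasi-likelihood test was 0.969. At an unadjusted p under 0.05 the count was also 0, beside 96 of all genes tested (0.712%). The estimates ran from -0.34 for *Syt11* to 0.43 for *Syt17*, and their median was 0.0063, beside -0.023 over all genes tested. The median size of the log2 fold change was 0.047 for these genes and 0.098 over all genes tested. These medians were not matched for count level, so the difference is not read as particular to these genes. An estimate above 0 was found for 19 of the 35 with TMM scaling, beside 43.8% of all genes tested, for 22 with DESeq2's size factors, beside 48.6%, for 21 with upper quartile scaling, beside 46.7%, and for 16 without the filter on low counts, beside 43.2%. With single libraries left out, the number above 0 ran from 17 without K090, beside 45.7%, to 23 without L082, beside 51.2%.

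The intervals show how large a difference the libraries allow. For 26 of the 35 genes the 95% interval of the log2 fold change lay inside -0.5 to 0.5, as it did for 55.4% of all genes tested, without matching for count level. The 9 with wider intervals were *Vamp5*, *Stx1a*, *Stx2*, *Vti1b*, *Napb* and the 4 tested synaptotagmins. Every *Slc37a2* KO library lay above every WT library for 2 genes, *Vamp4* and *Vamp2*, where 1.5% of all genes tested did so. The opposite order was found for 0 of these genes and 2.81% of all tested, and either order for 4.31% of all tested. With 3 libraries per genotype the smallest two-sided p of an exact permutation test is 0.1. Summed over all 48 genes, the level was 2103, 2146 and 2216 CPM in WT K090, L080 and L082 and 2322, 2040 and 2251 CPM in *Slc37a2* KO K089, L078 and L081, and the genotypes overlapped. Since these are bulk libraries, fewer cells of a type and less RNA per cell cannot be told apart.

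*Slc37a2* KO L078 weighed on several of these values. Without it, *Vamp4* and *Stx4a* had an unadjusted p under 0.05, which is 2 of 36 genes tested, beside 2732 of 13585 genes (20.1%) in the same fit. Their log2 fold changes were then 0.15 for *Vamp4* (0.11 with all libraries) and 0.23 for *Stx4a* (0.13 with all libraries). The count called at an adjusted p under 0.05 was again 0, and the smallest adjusted p was 0.227 by edgeR's quasi-likelihood test and the Benjamini-Hochberg method.

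**Figure D1:**
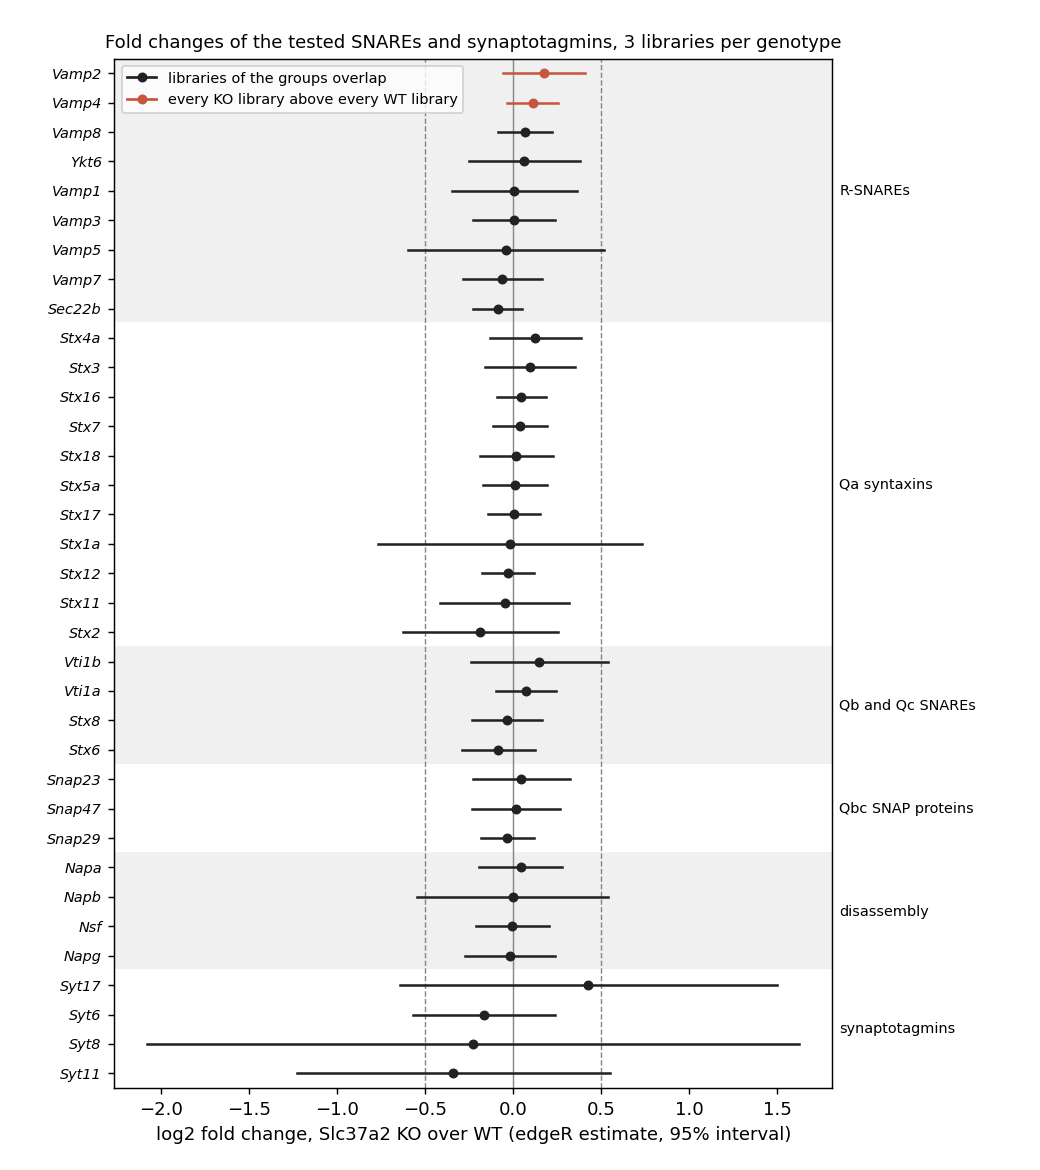
Log2 fold changes between *Slc37a2* KO and WT (above 0 where *Slc37a2* KO is higher) for the 35 tested genes, grouped by role, with points for the edgeR estimate and lines for its 95% interval over 3 libraries per genotype; dashed lines mark -0.5 and 0.5. All 35 intervals cross 0, and 26 lie inside the dashed lines. The 9 that reach beyond them are those of the 4 synaptotagmins, *Vamp5*, *Stx1a*, *Stx2*, *Vti1b* and *Napb*.

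The R-SNAREs, which sit mostly on the vesicle, were all 9 tested. *Vamp9*, which had 2 counts in all and was not tested, was kept outside this class. Their median log2 fold change was 0.0063, and 8 of the 9 intervals lay inside -0.5 to 0.5. *Vamp7*, the R-SNARE best known for lysosome exocytosis, measured 40.0, 46.2 and 36.9 CPM in WT K090, L080 and L082 and 38.7, 38.5 and 40.9 CPM in *Slc37a2* KO K089, L078 and L081. The *Slc37a2* KO libraries fell within the range of the WT libraries, and the log2 fold change was -0.06 (SE 0.09, 95% interval -0.29 to 0.17). *Vamp8*, which works in late endosomal fusion and in granule secretion of blood cells, measured 145, 139 and 131 CPM in WT against 143, 141 and 149.9 CPM in *Slc37a2* KO, in the same library order. Its lowest library was WT L082 and its highest *Slc37a2* KO L081, with the others mixed between them, and the log2 fold change was 0.07 (SE 0.06, 95% interval -0.09 to 0.22).

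*Vamp4*, an R-SNARE of the trans-Golgi network and endosomes, had the smallest unadjusted p of the 35. It measured 74.7, 73.8 and 71.2 CPM in WT K090, L080 and L082 and 81.7, 74.7 and 80.9 CPM in *Slc37a2* KO K089, L078 and L081. The groups were kept apart by a narrow gap, from 74.66 CPM in K090 to 74.72 CPM in L078, and the order was lost when the scaling was computed without the filter on low counts. The log2 fold change was 0.11 (SE 0.06, 95% interval -0.03 to 0.25, unadjusted p = 0.108), and it was 0.13 between the 2 libraries whose numbers begin with K and 0.10 among those beginning with L. *Vamp2*, the synaptobrevin of regulated exocytosis, measured 16.2, 16.1 and 14.9 CPM in WT and 18.1, 19.0 and 16.2 CPM in *Slc37a2* KO, in the same order. Here too the gap was narrow, 16.19 CPM in K090 against 16.22 CPM in L081, and it closed without the filter. For *Vamp2* the log2 fold change was 0.17 (SE 0.10, 95% interval -0.06 to 0.41, unadjusted p = 0.117), with 0.16 within K and 0.18 within L.

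*Sec22b*, an R-SNARE of traffic between the endoplasmic reticulum and the Golgi, measured 53.1, 51.8 and 54.2 CPM in WT K090, L080 and L082 and 49.6, 52.1 and 48.1 CPM in *Slc37a2* KO K089, L078 and L081. *Slc37a2* KO L078 lay just above WT L080, so the groups overlapped, and the log2 fold change was -0.09 (SE 0.06, 95% interval -0.23 to 0.05, unadjusted p = 0.175). *Ykt6*, a lipid-anchored R-SNARE of the Golgi and of autophagosome fusion, measured 216, 202 and 259 CPM in WT and 259, 203 and 246 CPM in *Slc37a2* KO. Its spread lay within the genotypes, with L082, K089 and L081 high and L080 and L078 low, and the log2 fold change was 0.06 (SE 0.13). *Vamp3*, the cellubrevin of recycling endosomes, had the same 3 high libraries, at 103, 107 and 117 CPM in WT and 119, 96.6 and 113 CPM in *Slc37a2* KO. For *Vamp3* the log2 fold change was 0.0035 (SE 0.10, 95% interval -0.23 to 0.24).

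The R-SNAREs spanned a wide range of levels per length. *Ykt6* stood highest at 77.4 ± 9.01 CPM per kb (SD over 6 libraries), followed by *Vamp8* at 61.2 ± 2.83 and *Vamp3* at 37.8 ± 2.98 CPM per kb, and the libraries of these neighbours did not overlap. *Vamp4* at 16.7 ± 0.92 and *Vamp7* at 15.9 ± 1.28 CPM per kb did not differ beyond their spread, and *Sec22b* followed at 12.9 ± 0.57 CPM per kb. *Vamp2* stood at 4.40 ± 0.39 and *Vamp5* at 1.80 ± 0.34 CPM per kb. *Vamp1* was the least abundant of the R-SNAREs tested, with 4.43, 4.59 and 3.98 CPM in WT K090, L080 and L082, 3.93, 4.64 and 4.49 CPM in *Slc37a2* KO K089, L078 and L081, and 0.427 ± 0.031 CPM per kb over the 6 libraries. With the longest coding transcript as the length, a choice added after seeing the data, *Sec22b* at 18.3 CPM per kb came before *Vamp7* at 15.9 CPM per kb, with overlapping libraries, and *Vamp4* stood apart at 27.7 CPM per kb. Of the R-SNARE level per length, *Ykt6* made up 33.6 ± 3.26% in WT and 34.0 ± 2.12% in *Slc37a2* KO, *Vamp8* 26.6 ± 2.12% and 27.1 ± 1.41%, and *Vamp7* 7.21 ± 1.06% and 6.71 ± 0.379% (SD, n = 3 each). Each of these shares differed between genotypes by less than the SD of the WT libraries. The shares of *Sec22b*, 5.92 ± 0.082% in WT and 5.44 ± 0.569% in *Slc37a2* KO, differed by more than the WT SD but less than the *Slc37a2* KO SD. So did those of *Vamp2*, 1.84 ± 0.140% and 2.02 ± 0.274%.

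**Figure D2:**
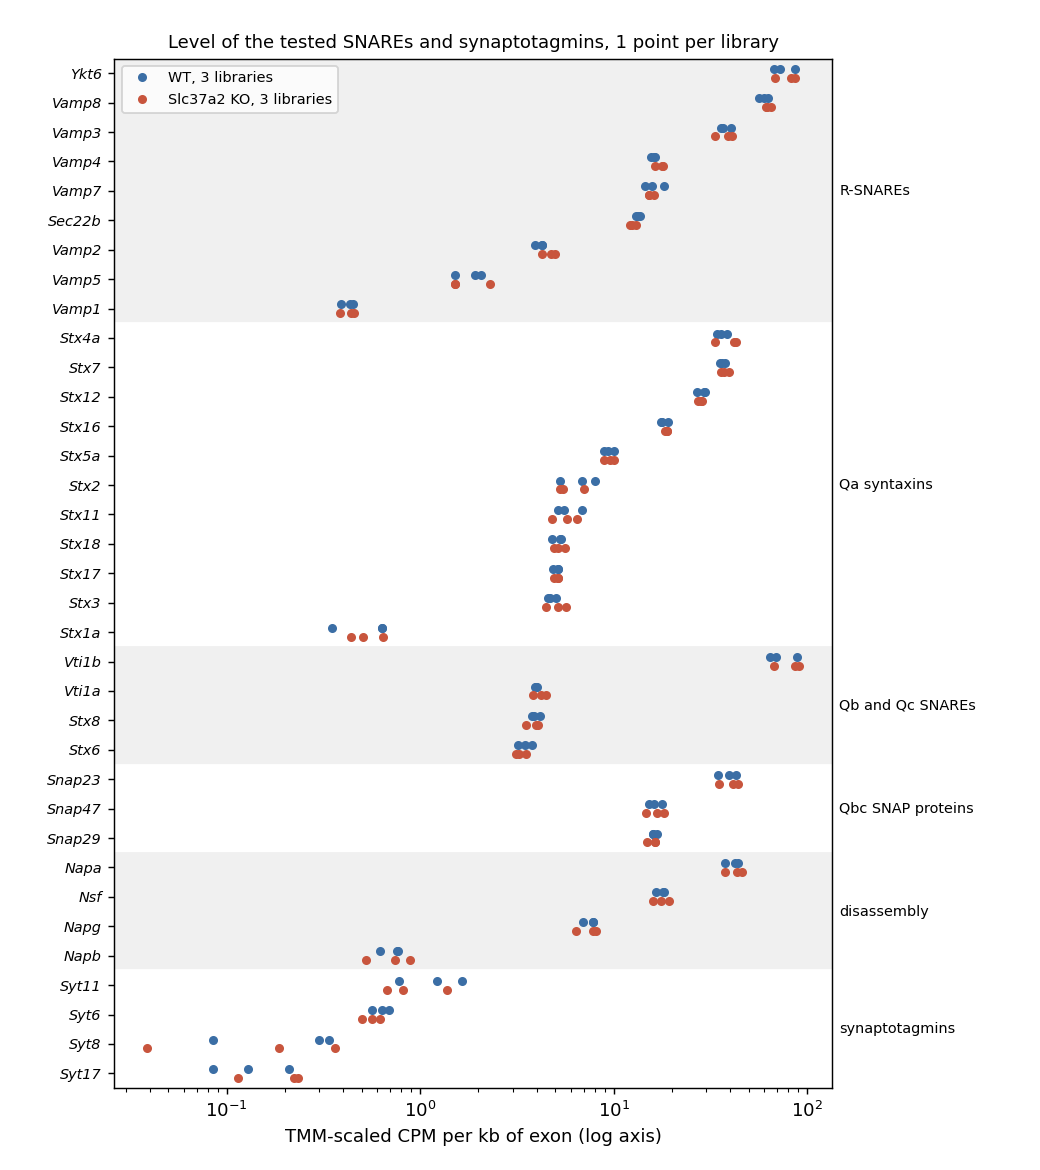
Level of the 35 tested genes in TMM-scaled CPM per kb of merged exons on a log axis, grouped by role and ordered by mean level, with 1 point per library and WT above *Slc37a2* KO on each line. *Ykt6* and *Vti1b* stand highest, the 4 synaptotagmins have means of at most 1.09 CPM per kb, and the genotypes overlap on every line but those of *Vamp4* and *Vamp2*.

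The Qa syntaxins anchor the complex on the target membrane, and 11 of the 12 listed were tested. Their median log2 fold change was 0.012, and 9 of the 11 intervals lay inside -0.5 to 0.5. *Stx4a*, which encodes syntaxin 4 of the plasma membrane, measured 85.1, 81.0 and 90.5 CPM in WT K090, L080 and L082 and 98.9, 79.4 and 102 CPM in *Slc37a2* KO K089, L078 and L081. *Slc37a2* KO K089 and L081 lay above every WT library and L078 below every one, and the log2 fold change was 0.13 (SE 0.11, 95% interval -0.13 to 0.38, unadjusted p = 0.285). *Stx3*, another syntaxin of the plasma membrane, measured 26.6, 26.2 and 28.8 CPM in WT and 32.5, 25.4 and 29.5 CPM in *Slc37a2* KO, again with L078 below and K089 and L081 above every WT library. Its log2 fold change was 0.10 (SE 0.11, 95% interval -0.16 to 0.35), with 0.035 when K089 was left out and 0.19 when L078 was.

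*Stx7*, the Qa SNARE of late endosomes and lysosomes, measured 159, 169 and 162 CPM in WT K090, L080 and L082 and 176, 160.2 and 166 CPM in *Slc37a2* KO K089, L078 and L081. The highest library was 1.11 times the lowest, the genotypes overlapped, and the log2 fold change was 0.04 (SE 0.06, 95% interval -0.11 to 0.19). *Stx12*, the endosomal syntaxin also called syntaxin 13, was as even, at 94.2, 93.2 and 85.5 CPM in WT and 86.5, 89.8 and 90.7 CPM in *Slc37a2* KO, all 3 of the latter within the WT range. *Stx17*, which autophagosomes use to fuse with lysosomes, measured 28.9, 30.7 and 30.4 CPM in WT and 30.5, 30.6 and 29.3 CPM in *Slc37a2* KO. It was the steadiest of the 35, its log2 CPM over the 6 libraries having an SD of 0.036, which is among the lowest 1.64% of genes tested. The log2 fold changes were -0.03 (SE 0.06) for *Stx12* and 0.0063 (SE 0.06) for *Stx17*, with 95% intervals from -0.18 to 0.12 and from -0.14 to 0.15.

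*Stx11*, a syntaxin of immune cells needed for the release of cytotoxic granules, was less even, with 29.0, 21.8 and 23.2 CPM in WT K090, L080 and L082 and 20.3, 27.1 and 24.2 CPM in *Slc37a2* KO K089, L078 and L081. Each genotype had 1 high library, K090 and L078, and the log2 fold change was -0.05 (SE 0.15, 95% interval -0.42 to 0.32). *Stx2*, a syntaxin of the plasma membrane also known as epimorphin, measured 31.6, 36.9 and 24.2 CPM in WT and 24.1, 32.1 and 25.1 CPM in *Slc37a2* KO. K090, L080 and L078 were high and the other libraries low, and the log2 fold change was -0.19 (SE 0.18, 95% interval -0.63 to 0.25), with -0.042 when L080 was left out and -0.33 when L078 was. *Stx16* of the trans-Golgi network, *Stx5a* of the Golgi and *Stx18* of the endoplasmic reticulum had log2 fold changes of 0.04, 0.012 and 0.019, each with its interval inside -0.5 to 0.5. Exons of *Stx18* share 574 bases with *Nsg1* on the other strand, and those of *Stx5a* share 109 bases with the microRNA gene *Mir6992* on the same strand.

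Per length, the Qa syntaxins were led by *Stx4a* at 37.9 ± 3.95 and *Stx7* at 37.0 ± 1.48 CPM per kb (SD over 6 libraries), which did not differ beyond their spread. *Stx12* followed at 28.2 ± 1.10, *Stx16* at 18.4 ± 0.66 and *Stx5a* at 9.47 ± 0.53 CPM per kb, none overlapping its neighbours. *Stx2*, *Stx11*, *Stx18*, *Stx17* and *Stx3* lay together between 4.93 and 6.32 CPM per kb, with overlap between neighbours, though every *Stx2* library lay above every *Stx17* library. By the longest coding transcript the order differed: *Stx4a* at 61.5 CPM per kb stood apart from *Stx7* at 48.2 CPM per kb, *Stx5a* at 24.4 CPM per kb came before *Stx16* at 18.9 CPM per kb, and the 5 lower genes spread from 5.21 CPM per kb for *Stx17* to 10.0 CPM per kb for *Stx3*. The neuronal syntaxin gene *Stx1a*, the least abundant of those tested, measured 0.93, 1.70 and 1.70 CPM in WT K090, L080 and L082 and 1.17, 1.71 and 1.34 CPM in *Slc37a2* KO K089, L078 and L081, or 0.535 ± 0.124 CPM per kb.

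The Qb and Qc SNAREs complete the endosomal complexes with 1 helix each. All 4 that the naming rule took were tested, with a median log2 fold change of 0.019. *Vti1b*, the Qb SNARE of late endosomes, measured 111, 103 and 143 CPM in WT K090, L080 and L082 and 147, 109 and 139.7 CPM in *Slc37a2* KO K089, L078 and L081. L082, K089 and L081 were high and K090, L080 and L078 low, a split that ran across the genotypes, and the log2 fold change was 0.15 (SE 0.16, 95% interval -0.24 to 0.54), with 0.057 when L080 was left out and 0.33 when L082 was. *Stx8*, the Qc SNARE that joins *Stx7* and *Vti1b* in late endosomal complexes, was steadier, at 27.5, 27.0 and 29.7 CPM in WT and 28.8, 25.2 and 28.2 CPM in *Slc37a2* KO. For *Stx8* the log2 fold change was -0.03 (SE 0.08, 95% interval -0.23 to 0.16).

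*Vti1b* was the most abundant of these 4 genes, at 77.8 ± 12.2 CPM per kb of merged exons. On that scale it made up 86.4 ± 1.94% of their summed level in WT and 87.7 ± 1.37% in *Slc37a2* KO. SNAREs outside the naming rule are not in these shares, among them *Use1* at 50.2 and *Gosr2* at 32.4 CPM per kb. By the longest coding transcript *Use1* stood at 103.9 and *Vti1b* at 84.2 CPM per kb, with overlapping libraries. *Vti1a*, *Stx8* and *Stx6*, which with *Vti1a* serves the trans-Golgi network, stood at 4.07 ± 0.23, 3.89 ± 0.22 and 3.39 ± 0.24 CPM per kb, and neighbours among them overlapped. The merged exons of *Vti1a* and *Stx6* are long, and by the longest coding transcript *Vti1a* stood at 12.0 CPM per kb and *Stx6* at 7.86 CPM per kb, ahead of *Stx8* at 6.31 CPM per kb. *Stx6*, the least abundant by merged exons, measured 37.0, 40.0 and 34.2 CPM in WT K090, L080 and L082 and 34.4, 37.5 and 33.1 CPM in *Slc37a2* KO K089, L078 and L081. Its log2 fold change was -0.08 (SE 0.09), and that of *Vti1a* was 0.07 (SE 0.07).

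The Qbc SNAP proteins give 2 helices to the complex at once, and 3 of the 4 listed were tested, with a median log2 fold change of 0.016. *Snap23*, the form used outside neurons, measured 149, 183 and 169 CPM in WT K090, L080 and L082 and 189, 151 and 178 CPM in *Slc37a2* KO K089, L078 and L081. K090 and L078 were the low libraries, 1 of each genotype, and the log2 fold change was 0.05 (SE 0.11, 95% interval -0.23 to 0.32). *Snap29*, which pairs with *Stx17* on autophagosomes, measured 54.9, 55.3 and 57.6 CPM in WT and 56.6, 51.3 and 56.1 CPM in *Slc37a2* KO, and its exons share 60 bases with *Pi4ka* on the other strand. Only L078 left the WT range, on the low side, and the log2 fold change was -0.03 (SE 0.06, 95% interval -0.18 to 0.12). *Snap47*, a widely expressed relative whose exons share 307 bases with *Jmjd4* on the other strand, had a log2 fold change of 0.016 (SE 0.10).

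*Snap23* was the most abundant of the Qbc SNAP proteins at 39.6 ± 3.91 CPM per kb, and *Snap47* at 16.4 ± 1.42 and *Snap29* at 16.0 ± 0.63 CPM per kb did not differ beyond their spread. By the longest coding transcript *Snap47*, at 23.0 CPM per kb, stood apart from *Snap29*, at 16.0 CPM per kb. *Snap25*, the neuronal form and the least abundant, had 1 count, in *Slc37a2* KO K089, and 0 in the other 5 libraries. A count of 0 allows up to 3 counts, which is between 0.0665 CPM in L078 and 0.106 CPM in L081 among those 5 libraries. Such limits and intervals cover counting error only, because copies of a molecule made by PCR cannot be told from separate molecules in these reads.

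The disassembly machinery had a median log2 fold change of -0.0040 over its 4 genes. *Nsf*, the ATPase that takes spent SNARE complexes apart, measured 152, 139 and 151 CPM in WT K090, L080 and L082 and 161, 133 and 146 CPM in *Slc37a2* KO K089, L078 and L081. *Napa*, which encodes the alpha-SNAP adaptor, measured 143, 160.0 and 166 CPM in WT and 175, 143 and 165 CPM in *Slc37a2* KO. For both genes L078 was among the low libraries and K089 the highest, and the genotypes overlapped. The log2 fold change of *Nsf* was -0.0051 (SE 0.09, 95% interval -0.21 to 0.20) with TMM and 0.013 with DESeq2's size factors, and that of *Napa* was 0.04 (SE 0.10, 95% interval -0.19 to 0.28). Per length, *Napa* led at 41.9 ± 3.42 CPM per kb, then *Nsf* at 17.6 ± 1.18 and *Napg* at 7.49 ± 0.66 CPM per kb, with no overlap between neighbours. *Napb*, the neuronal beta form and the least abundant, measured 5.39, 5.37 and 4.36 CPM in WT K090, L080 and L082 and 6.24, 3.70 and 5.19 CPM in *Slc37a2* KO K089, L078 and L081, or 0.715 ± 0.126 CPM per kb. Its log2 fold change was -0.0028 (SE 0.22) and that of *Napg*, the gamma form, -0.017 (SE 0.11), and both estimates changed sign with DESeq2's size factors.

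The synaptotagmins were the sparsest class, with 4 of the 14 listed tested and 0 of the 4 intervals inside -0.5 to 0.5. *Syt7*, known as the calcium sensor of lysosome exocytosis, was not tested: it had 4, 2 and 3 counts in WT K090, L080 and L082 and 4, 2 and 3 counts in *Slc37a2* KO K089, L078 and L081. The 18 counts came to 0.0896 CPM over all libraries, with an exact 95% Poisson interval from 0.0531 to 0.142 CPM. *Syt11*, which binds no calcium and is known from phagosomes and vesicles of macrophages, was the most abundant synaptotagmin at 1.09 ± 0.389 CPM per kb. It measured 8.57, 6.36 and 4.04 CPM in WT and 3.52, 7.19 and 4.24 CPM in *Slc37a2* KO, in the same library order.

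The spread of *Syt11* ran across the genotypes, with K090, L080 and L078 high and L082, K089 and L081 low. The highest library was 2.43 times the lowest, and the SD of log2 CPM was larger than in 86.2% of genes tested. The log2 fold change was -0.34 (SE 0.37, 95% interval -1.23 to 0.55), and with single libraries left out it ran from -0.71 without L078 to -0.054 without K090. The same 3 libraries, K090, L080 and L078, held the highest levels of *Adgre1*, *Mrc1*, *Mertk* and *Cd14*, the lowest of *Cd68*, the highest interferon sums and the lowest osteoclast sums. The macrophage gene *Csf1r* and the osteoclast genes *Calcr* and *Nfatc1* did not follow this split. K090, L080 and L078 were also the high libraries of *Stx2*, *Stx6*, *Syt6* and *Vamp5*, whereas other genes, among them *Vti1b*, *Ykt6* and *Vamp3*, were lowest in them. The part of the marker and interferon differences in the levels of *Syt11* and these genes was not tested. *Syt17*, at 0.44, 0.67 and 1.09 CPM in WT K090, L080 and L082 and 1.21, 0.60 and 1.17 CPM in *Slc37a2* KO K089, L078 and L081, was lowest in K090, L080 and L078. By merged exons it was the least abundant tested synaptotagmin, at 0.166 ± 0.0637 CPM per kb, below *Syt8* at 0.218 ± 0.136 CPM per kb, with overlapping libraries. By the longest coding transcript *Syt8*, at 0.275 CPM per kb, came below *Syt17*, at 0.292 CPM per kb. For *Syt17* the log2 fold change was 0.43 (SE 0.44, 95% interval -0.64 to 1.497), and with single libraries left out it ran from 0.15 without K090 to 0.86 without L082. *Syt8* measured 0.637, 0.565 and 0.160 CPM in WT and 0.0734, 0.688 and 0.353 CPM in *Slc37a2* KO, in the same library order, so that K090, L080 and L078 were the high libraries, as for *Syt11*. Its log2 fold change of -0.23 (SE 0.77) had the widest interval of the 35 genes, from -2.08 to 1.63. *Syt6* was steadier at 0.596 ± 0.067 CPM per kb, with a log2 fold change of -0.16 (SE 0.17).

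Of the 13 genes that were not tested, 10 were synaptotagmins. *Syt16*, *Syt12*, *Syt3* and *Syt14* had 53, 50, 41 and 27 counts over the 6 libraries together. *Syt13* had 18 and *Syt5* 11, and *Syt1*, the calcium sensor of fast synaptic release, had 9. *Syt13* had 5, 7 and 2 counts in WT K090, L080 and L082 and 0, 4 and 0 counts in *Slc37a2* KO K089, L078 and L081. *Syt4* had 2 counts and *Syt2* had 1, all in WT L082. Outside the synaptotagmins, *Vamp9* had 1 count in WT K090 and 1 in WT L082. Without the filter on low counts all 48 genes were tested, and 0 were called in edgeR's quasi-likelihood test or had an unadjusted p under 0.05. *Syt16* passed the filter in 4 of the 6 fits with a library left out. The groups overlapped without K089 (log2 fold change -0.92, unadjusted p = 0.253) and without L081 (log2 fold change -0.68, unadjusted p = 0.309). All *Slc37a2* KO libraries were lower than all WT libraries without L082 (log2 fold change -1.33, unadjusted p = 0.0565) and without L078 (log2 fold change -1.68, unadjusted p = 0.0549), as 9.41% and 22.1% of all genes did in those 2 fits. *Syt12* also passed in 4 of the 6 fits, with overlapping groups and estimates above 0 in each, from 0.13 without L080 to 0.87 without K089.

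The partners of the SNAREs were read from lists, and 0 of the 49 partner genes tested were called. The SM proteins clasp SNARE bundles while they zip, and 10 of 12 listed with their syntaxin-binding relatives were tested, with a median log2 fold change of -0.0057. This median was 0.032 without L078 and 0.013 with DESeq2's size factors. *Stxbp2*, the Munc18 protein that works with *Stx11*, measured 139, 139 and 136 CPM in WT K090, L080 and L082 and 149.7, 132 and 148 CPM in *Slc37a2* KO K089, L078 and L081. Its genotypes overlapped, with a log2 fold change of 0.05 (SE 0.07), and that of *Stxbp3*, the partner of syntaxin 4, was 0.0049 (SE 0.06). *Scfd1*, the SM protein of the early secretory route, was 51.2 ± 1.00 CPM in WT and 48.8 ± 0.90 CPM in *Slc37a2* KO (SD, n = 3 each), with every *Slc37a2* KO library below every WT library, which held for 1 of the 10 beside 2.81% of all genes tested, and a log2 fold change of -0.07 (SE 0.05). Of the 8 SNAREs and relatives that fell outside the naming rule, with *Sec22a* and *Sec22c* among the relatives, all were tested. Their median was 0.027, or 0.066 without L080 and 0.064 without L078. Among them *Bet1l* of the Golgi was the gene whose groups did not overlap, 1 of 8 with *Slc37a2* KO higher beside 1.5% of all genes tested. *Bet1l* measured 18.7 ± 0.41 CPM in WT and 20.4 ± 1.08 CPM in *Slc37a2* KO (log2 fold change 0.12, SE 0.08).

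HOPS and CORVET tether endosomes and lysosomes to their targets before the SNAREs act. The list of 7 leaves out *Vps33a*, a subunit of both that was read with the SM proteins, at a log2 fold change of 0.012 (SE 0.06). All 7 listed genes had an estimate above 0, beside 43.8% of all genes tested. Their median was 0.07 and all 7 intervals lay inside -0.5 to 0.5, and 6 of the 7 were above 0 when the scaling was computed without the filter. *Vps11* had the largest estimate of the 7, at 95.7, 97.3 and 94.4 CPM in WT K090, L080 and L082 and 108, 91.9 and 115 CPM in *Slc37a2* KO K089, L078 and L081. L078 lay below every WT library and the other *Slc37a2* KO libraries above, and the log2 fold change was 0.13 (SE 0.09). Without L078, 5 of the 7 estimates were above 0 and their median was 0.13. The 9 exocyst genes, which tether vesicles at the plasma membrane, had a median of -0.011 and 9 intervals inside -0.5 to 0.5. The exocyst median was 0.026 without L078 and 0.0077 with DESeq2's size factors. *Exoc1* was the 1 of 9 whose groups did not overlap, with *Slc37a2* KO lower, beside 2.81% of all genes tested, at 58.9 ± 0.61 CPM in WT and 56.1 ± 0.15 CPM in *Slc37a2* KO (log2 fold change -0.07, SE 0.05).

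Of the priming factors and complexins, 5 of 11 were tested, with a median of 0.13 and 1 of the 5 intervals inside -0.5 to 0.5. That median was 0.048 without K089 and 0.053 without L081. *Unc13d*, the Munc13 protein that primes lysosome-related granules, measured 31.9, 33.9 and 35.0 CPM in WT K090, L080 and L082 and 42.0, 30.2 and 38.2 CPM in *Slc37a2* KO K089, L078 and L081. K089 and L081 were above every WT library and L078 below, and the log2 fold change was 0.13 (SE 0.13, 95% interval -0.18 to 0.44). *Cplx2*, a complexin that clamps assembled SNAREs, was 13.2 ± 1.68 CPM in WT and 11.3 ± 1.20 CPM in *Slc37a2* KO, with a log2 fold change of -0.22 (SE 0.14). Of the relatives of synaptotagmin with paired calcium-binding domains, 10 of 15 were tested, with a median of -0.036 and 1 of the 10 intervals inside -0.5 to 0.5. Their median was 0.15 without L082, 0.10 without L081 and -0.20 with at least 1 CPM in 3 libraries as the filter. *Myof*, a ferlin of membrane repair and fusion, was the most abundant of them at 77.3 CPM per kb, far above *Syt11* on that scale. It measured 963, 909 and 915 CPM in WT and 1042, 955 and 1059 CPM in *Slc37a2* KO, with L078 inside the WT range, and the log2 fold change was 0.13 (SE 0.08, 95% interval -0.07 to 0.33).

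Across the libraries, the widest spreads among the SNAREs and synaptotagmins ran within the genotypes. The highest library was at least 1.5 times the lowest for 7 of the 35 tested genes, namely *Syt8*, *Syt17*, *Syt11*, *Stx1a*, *Napb*, *Stx2* and *Vamp5*, and the genotypes overlapped for all 7. At the steady end stood *Stx17*, *Stx16*, *Stx12*, *Stx7* and *Snap29*, whose highest library was between 1.06 and 1.12 times the lowest. The median SD of log2 CPM over the 6 libraries was 0.119 for the 35 genes and 0.164 over all genes tested. It was 0.536 for the 4 tested synaptotagmins, which had low counts. The genes were not matched for count level, so steadiness is not read as particular to the 35.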

How the data were processed

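RNAseq of 3 WT and 3 *Slc37a2* KO libraries was analysed from the deposited count table, which lists the unnormalized read counts of 22601 gene symbols as whole numbers. The submitters' processing notes name bcl2fastq 2.20.0.422, edgeR 3.30.3 and the build mm10, which is GRCm38. For the aligner, the counting tool, its use of strand and the annotation nothing is stated (not given in the sources used here), so reads of genes that overlap on opposite strands cannot be told apart. The table's own comparison columns (fold change, mean CPM, likelihood ratio, p-value and FDR) were not used. Columns were assigned to genotypes from their headings, 0 columns belonged to other samples, and no library was paired with another.

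Analyses were run under R 4.3.3 using edgeR 4.0.16 and DESeq2 1.42.0. Genes were filtered with filterByExpr, library sizes scaled by TMM, and genotype was tested with glmQLFit and glmQLFTest. P-values were adjusted by the Benjamini-Hochberg method over the 13483 genes tested, and genes were called at an adjusted p under 0.05. The study's further limit, an absolute log2 fold change over 1.5, was passed by 0 of the SNARE and synaptotagmin genes. The 95% intervals were built on each gene's estimate, its standard error and the t distribution. The fit had a biological coefficient of variation of 20.8%. Log2 CPM used a prior count of 2. Gene lengths and positions came from GENCODE M21 (GRCm38), in which 83.0% of listed symbols and all 48 of these genes had a single match, *Vamp7* on an unplaced scaffold. Figures were drawn with Python 3.11.15 and matplotlib 3.10.9. The fits were tested on simulated data.

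The genes and lists were chosen with earlier results of these data known. Values in every library were given for *Slc37a2* and for 21 SNARE and synaptotagmin genes known for lysosomal or endosomal fusion or as their plasma membrane partners. They were also given for SNARE and synaptotagmin genes whose groups did not overlap, for the 4 with the smallest unadjusted p, and for the most and least abundant of each role. Partner genes whose groups did not overlap were given as means with SD. *Stx2*, *Syt8*, *Syt12*, *Syt13*, *Syt16*, *Syt17* and the partner genes were singled out after their values were seen. Alternatives were DESeq2's size factors, upper quartile scaling, no filter, at least 1 CPM in 3 libraries, DESeq2's Wald test, the likelihood ratio test of edgeR, the first letter of the animal number as a term, and each library left out in turn. The length of the longest coding transcript was added after seeing the data. The values of 1 gene that was not tested, and some overlaps between exons, are not reported here.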

Additional observations from a re-analysis of the deposited data

How the results depend on the processing

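Under the 7 other settings of scaling, filter, test and letter term, 0 of the SNARE and synaptotagmin genes were called, and 231 of 244 estimates kept their sign. The 13 that did not belong to 7 genes with estimates within 0.019 of 0. They were, with DESeq2's size factors, 0.013 for *Nsf*, 0.0024 for *Napg* and 0.017 for *Napb*. With upper quartile scaling they were 0.0050 for *Nsf* and 0.0063 for *Napb*, and with DESeq2's Wald test 0.013 for *Nsf*, 0.0021 for *Napg*, 0.013 for *Napb* and 0.0015 for *Stx1a*. Without the filter they were -0.00051 for *Stx17*, -0.0036 for *Vamp3* and -0.00081 for *Vamp1*, and with the letter term 0.0049 for *Stx1a*. The number of genes with every *Slc37a2* KO library above every WT library was 0 without the filter. The cause was not tested.

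With each library left out in turn, 0 of the genes were called and 167 of 210 estimates kept their sign. The median log2 fold change ran from -0.0046 to 0.060, the count with every *Slc37a2* KO library higher from 2 to 7, and the count with every one lower from 0 to 2, all over the same 35 genes. *Syt16*, which passed the filter in some of these fits, would make it 3 without L082 and 2 without L078. Over all genes tested in the same fits, the shares ran from 3.64% to 19.6% higher and from 3.27% to 22.1% lower. The 7 genes were found without L078, where both shares were highest. The estimates that changed sign belonged to 20 genes and ran from -0.016 to 0.12 for *Napa*, -0.16 to 0.18 for *Napb*, -0.070 to 0.083 for *Napg*, -0.052 to 0.060 for *Nsf*, -0.029 to 0.14 for *Snap23*, -0.045 to 0.015 for *Snap29*, -0.039 to 0.11 for *Snap47*, -0.15 to 0.085 for *Stx11*, -0.049 to 0.011 for *Stx12*, -0.020 to 0.046 for *Stx17*. They further ran from -0.025 to 0.069 for *Stx18*, -0.26 to 0.15 for *Stx1a*, -0.028 to 0.061 for *Stx5a*, -0.061 to 0.033 for *Stx8*, -1.10 to 0.23 for *Syt8*, -0.043 to 0.10 for *Vamp1*, -0.037 to 0.086 for *Vamp3*, -0.27 to 0.079 for *Vamp5*, -0.11 to 0.033 for *Vamp7* and -0.012 to 0.20 for *Ykt6*. For the 15 genes that kept their sign in all 6 fits the ranges were -0.71 to -0.054 for *Syt11*, -0.24 to -0.072 for *Syt6*, 0.15 to 0.86 for *Syt17*, 0.018 to 0.069 for *Stx7*, 0.080 to 0.23 for *Stx4a*, 0.025 to 0.085 for *Stx16*, -0.33 to -0.042 for *Stx2*, 0.035 to 0.19 for *Stx3*, 0.057 to 0.33 for *Vti1b*, 0.047 to 0.13 for *Vti1a*, -0.14 to -0.026 for *Stx6*, 0.052 to 0.10 for *Vamp8*, 0.11 to 0.15 for *Vamp4*, -0.12 to -0.041 for *Sec22b* and 0.12 to 0.26 for *Vamp2*. The log2 fold change of *Slc37a2* ran from -5.94 to -5.69 and stayed past the threshold in all 6 fits.

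No paired analysis was possible because the column headings carry no replicate numbers and do not say which animals were littermates. The letter of the animal number, fitted as a term, is a block of 1 or 2 libraries per genotype and not a pairing. Low counts limit what can be read from the 13 genes that were not tested, and from *Syt8* and *Syt17*, which had at most 34 counts in any library. Within the letter K there was 1 library per genotype, and 11 of the 35 tested genes had differences of the same sign within K and within L. No share over all genes tested stands beside this count, so it is not read as particular to these genes.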
